A study of Mus musculus with 556 samples.

Results

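Pramel and Oog genes of the mouse lie in clusters of related copies, and their contact with the nuclear lamina was followed, cell by cell, between the oocyte and the embryonic stem (ES) cell. The members were the autosomal protein-coding genes whose symbol is Pramel or Oog plus digits, and each gene was placed in the 100 kb bin that holds its midpoint. Of 51 matching symbols 49 remained, 45 Pramel and 4 Oog genes, since Pramel3 lies on a sex chromosome and Pramel28 is annotated as a pseudogene. They filled 35 of 24022 autosomal bins with values. Each bin was used once: 24 held 1 member, 8 held 2 and 3 held 3. The set was proposed because its signal with Dam-lamin B1 changed from stage to stage, so that course is given as a description, without a test.

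The assay was single-cell DamID. Dam, a bacterial methyltransferase, marks the adenine of the sequence GATC. Fused to lamin B1, a protein of the meshwork under the nuclear membrane, it marks DNA at the nuclear periphery, while Dam alone marks accessible DNA. Untreated groups with Dam-lamin B1 held 56 oocytes, 19 zygotes and 10 ES cells, and blastomeres of 2-cell (47) and 8-cell (41) embryos. Groups with Dam held 43 oocytes, 46 zygotes, 45 cells of 2-cell and 4 cells of 8-cell embryos. Oocytes and zygotes received 5 ng/µl of Dam-lamin B1 mRNA, 2-cell embryos 10 and 8-cell embryos 20, against 20 ng/µl of Dam mRNA in oocytes and zygotes and 40 in later embryos. The injected mixtures also carried mRNA for TIR1, which lets auxin degrade the construct, and for a membrane-bound EGFP, and auxin was withheld for 6 to 8 h. Oocytes were collected at the germinal vesicle stage, and the females were F1 animals of CBA and C57BL/6J, 5 to 8 weeks old. Oocytes and isolated pronuclei carry the strain C57BL/6 in the labels, whole embryos and ES cells a cross with CAST/EiJ. The labels give the ES cells no mRNA dose. Over the whole course stage, dose and cross therefore cannot be told apart. The cross changes from oocyte to zygote, and the dose of Dam-lamin B1 mRNA changes after the zygote. The labels name no animal, embryo or culture behind the oocytes, blastomeres and ES cells, so each of those groups counts as 1 sample. Further groups with Dam-lamin B1 were isolated pronuclei and oocytes labelled 20 ng or 50 ng. Treated zygotes were labelled with wild-type or mutant Kdm5b, wild-type or mutant Kdm4d, aphidicolin or DMSO. Some pronuclei also carried wild-type or mutant Kdm5b. The assay reads DNA, so the stage labels could not be checked with marker genes.

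PRAME-like proteins are built of leucine-rich repeats, and many of their genes are transcribed in oocytes, in the testis or in early embryos. The family has grown by tandem duplication in rodents. Oog genes belong to the same family and were found through their transcripts in oocytes. Pramel7 is known for its part in the ground state of pluripotency, where it promotes degradation of UHRF1, a cofactor of DNA methylation, and Pramel6 is its close relative. For most of the other members no function is given here.

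The members formed 6 clusters (mm10). The array of chromosome 4 spanned 143300001 to 144500000, with 23 genes in 12 bins, among them Oog2, Oog3 and Oog4. The array of chromosome 5 spanned 93500001 to 95800000, with 18 Pramel genes (Pramel33 to Pramel50) in 16 bins. Pramel6 and Pramel7 lay beside olfactory receptor genes on chromosome 2, from 87400001 to 87600000. Pramel17, Pramel18 and Pramel19 lay on chromosome 4 from 101800001 to 102000000. Pramel32 shared its bin on chromosome 4, from 88600001 to 88700000, with interferon alpha genes. Oog1 and Pramel51 lay on chromosome 12, between 87600001 and 88200000. Of the 35 bins 33 (94.3%) were covered by both deposited lists of lamina-associated domains of the blastocyst, one for the inner cell mass and one for the trophectoderm, against a background of 50.3% of all bins. The bin of Pramel45 was in the inner cell mass list only, and that of Pramel33 in neither.

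The stretches before the start sites show how alike the copies are. RefSeq's promoter table (GRCm38.p6) held 40 of the 49 members. The sequence GGTGTGGC, which was picked out after reading these stretches, occurred on either strand (other strand GCCACACC) in the 250 bases before the start of 18 of 40 members (45%), against 2.49% of 25748 promoters in the table. It can share no base with a GATC. All 4 Oog genes held it, as did 10 of 22 members of the chromosome 4 array and 6 of 12 of the chromosome 5 array. The 100 bases before the start of the 4 Oog genes are shown 5′ to 3′ with GGTGTGGC in capitals, together with those of Pramel26. Over the 250 bases before the start Pramel26 was 92.5% identical to Oog2.
Oog1 (chr12:87602565-87602664, plus strand): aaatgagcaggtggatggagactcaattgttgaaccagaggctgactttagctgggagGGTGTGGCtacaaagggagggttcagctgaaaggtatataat
Oog2 (chr4:144190617-144190716, plus strand): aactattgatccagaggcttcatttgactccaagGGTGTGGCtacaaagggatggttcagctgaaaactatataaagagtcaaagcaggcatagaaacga
Oog3 (chr4:144162652-144162751, minus strand): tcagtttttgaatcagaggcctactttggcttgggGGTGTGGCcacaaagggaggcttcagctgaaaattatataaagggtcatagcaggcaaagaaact
Oog4 (chr4:143450325-143450424, minus strand): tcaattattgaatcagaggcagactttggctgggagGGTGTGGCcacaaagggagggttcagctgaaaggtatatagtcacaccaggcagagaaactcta
Pramel26 (chr4:143816094-143816193, minus strand): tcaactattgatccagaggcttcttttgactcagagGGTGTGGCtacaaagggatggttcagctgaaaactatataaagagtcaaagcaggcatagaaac

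GATC, the sequence that Dam methylates, was in the 300-base promoter of 37 of 40 members (92.5%) and of 47.6% of all promoters in the table. Identity was measured over the 250 bases before the start. Some copies on chromosome 5 were nearly the same there, while the median pair of that array was 50.7% identical. Pramel37 and Pramel50 were 100% identical over these bases and Pramel33 and Pramel35 99.6%. A partner at 90% identity or more was found for 8 of 12 members on chromosome 5 and for 4 of 22 in the chromosome 4 array. Both pairs are shown over the 100 bases before the start, with GATC in capitals, because a read from such a stretch matches both copies. The sources used here do not say how the authors treated reads that match several places.
Pramel37 (chr5:94070546-94070645, minus strand): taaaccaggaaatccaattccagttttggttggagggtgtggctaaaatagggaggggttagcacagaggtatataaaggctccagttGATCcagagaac
Pramel50 (chr5:95736174-95736273, minus strand): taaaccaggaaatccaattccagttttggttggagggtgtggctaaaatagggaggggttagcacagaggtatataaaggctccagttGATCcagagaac
Pramel33 (chr5:93536332-93536431, minus strand): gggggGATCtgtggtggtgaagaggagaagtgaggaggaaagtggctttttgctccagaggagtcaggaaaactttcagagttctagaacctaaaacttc
Pramel35 (chr5:93794524-93794623, plus strand): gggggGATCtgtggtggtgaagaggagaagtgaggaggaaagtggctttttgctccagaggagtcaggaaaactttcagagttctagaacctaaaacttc

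Values are ratios of observed to expected reads (OE) per bin and cell, where 1 is the expected level. The expected number of a bin was recovered from the step between its values. In the chromosome 5 array it was 1.54% to 91.7% of that of the median bin, with a median of 12.3%. In the chromosome 4 array it was 38.8% to 134%, with a median of 106%. A bin was called well covered at 50% or more, which kept 18 of the 35 member bins and 98.0% of all bins. Pramel4 (62.5%) and Pramel51 (62.7%) lay just inside this limit and Pramel20 (38.8%) just outside. Of the chromosome 5 array only Pramel34 was well covered. Sums over several bins are given as pooled OE, the reads of all bins over their expected reads, in which thinly covered bins weigh little. Depth ran from 23564 to 1091143 reads per cell. The bin of Pramel12 and Oog4 expected 2.1 reads in the median cell of 8-cell embryos with Dam-lamin B1 and 10.2 in the median oocyte with Dam. A bin with OE of at least 1 in a cell is called in contact with Dam-lamin B1 and accessible with Dam. Contact in this sense is not corrected for accessibility, and where less than 1 read is expected a single read is enough. Shares of cells carry exact (Clopper-Pearson) 95% intervals that cover counting error only.

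With Dam-lamin B1 the members were above 1 in oocytes, below 1 at the 2-cell stage and highest at the 8-cell stage. Pooled OE over the 35 bins was 1.66 ± 0.84 (SD) in oocytes, with 0.787, 1.45 and 4.79 as lowest, median and highest cell. It was 1.12 ± 0.239 in zygotes (0.801, 1.07 and 1.72). In 2-cell embryos it was 0.798 ± 0.355 (0.183, 0.767 and 1.79). In 8-cell embryos it was 2.79 ± 0.777 (1.31, 2.61 and 4.96), so that the ranges of the 2-cell and 8-cell stages overlapped only between 1.31 and 1.79. In ES cells it was 1.46 ± 0.218 (1.02, 1.46 and 1.76). With Dam the same bins moved less, from 1.27 ± 0.208 in oocytes and 1.16 ± 0.234 in zygotes to 1.51 ± 0.339 in 2-cell embryos and 1.52 ± 0.342 in the 4 cells of 8-cell embryos. At the 2-cell stage the members were thus below 1 with Dam-lamin B1 and above 1 with Dam.

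**Figure D1:**
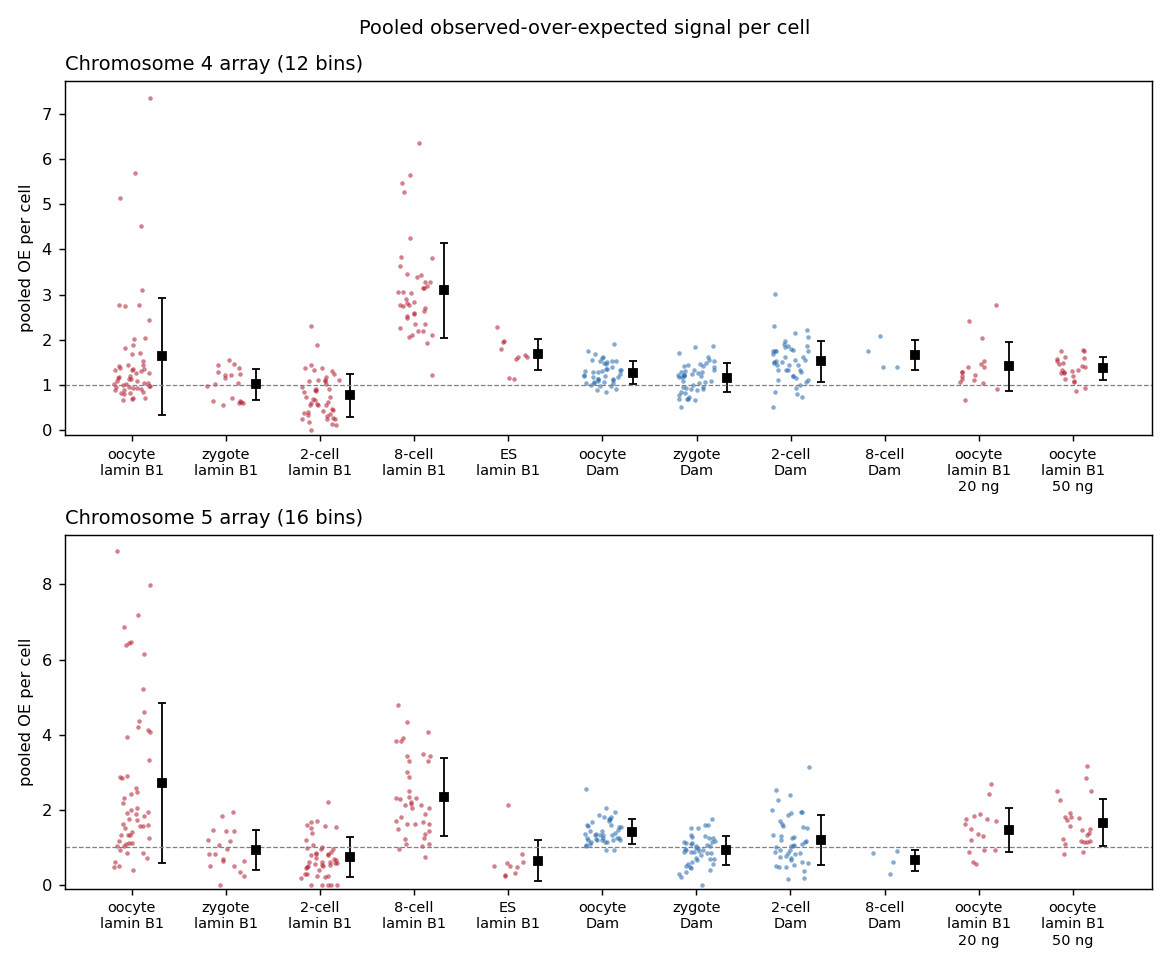
Pooled OE per cell over the 12 bins of the chromosome 4 array and the 16 bins of the chromosome 5 array by stage and construct. Each point is a cell, and squares with bars are means with SD. On chromosome 4 the cells of 8-cell embryos with Dam-lamin B1 average 3.1 and those of 2-cell embryos 0.774, while on chromosome 5 oocytes average 2.72 and spread from 0.407 to 8.88.

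Counted bin by bin, 25 of 35 bins had a mean OE at least 2-fold higher at the 8-cell than at the 2-cell stage with Dam-lamin B1, on the log2(OE + 0.25) scale, and 0 were 2-fold lower. Of all bins 6.74% were 2-fold higher and 5.88% lower. Among well covered members 13 of 18 were 2-fold higher, against 6.23% of well covered bins. The median step was 1.27 for the members and 0.04 for all bins on that scale. The share of cells in contact was at least 50 points higher for 10 of 35 bins, against 1.43% of all bins. These counts describe the values on which the members were chosen.

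The other steps involved fewer members. From the oocyte to the zygote 12 of 35 bins were 2-fold lower with Dam-lamin B1 (background 4%) and 0 higher (background 14.9%), but only 3 of the 18 well covered ones were lower (background 3.61%). From the zygote to the 2-cell stage 7 of 35 were lower (background 12.1%), and 3 of the 18 well covered ones, which is not read as a result. Where no share of well covered bins is given, here and below, that of all bins is the background, since 98.0% of them are well covered. The median log2 step of well covered members was -0.20, against -0.07 for all well covered bins. From the 8-cell stage to ES cells 19 of 35 were lower (background 5.17%), and 6 of the 18 well covered ones (background 4.71%). With Dam 3 of 35 bins were 2-fold lower from oocyte to zygote (background 0.271%) and 1 was higher from the zygote to the 2-cell stage (background 0.112%), none of them well covered. From the 2-cell to the 8-cell stage with Dam 10 were lower (background 24.8%) and 2 higher (background 4.12%). Of the 18 well covered members 2 were lower and 2 higher, with a median log2 step of -0.14 against -0.35 for all well covered bins.

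Set against Dam at the same stage, 12 of 35 members were 2-fold lower with Dam-lamin B1 at the 2-cell stage (background 17.6%). Among well covered members it was 5 of 18, with a median log2 difference of -0.69 against 0.12 for all well covered bins. At the 8-cell stage 20 were 2-fold higher (background 37.9%), but among well covered members it was 8 of 18, near the 37.8% of well covered bins. In the 56 oocytes 4 of 35 were 2-fold higher (background 0.962%), none of them well covered. The median log2 difference there was 0.54 for the members and -0.19 for all bins. Oocytes labelled 20 ng and 50 ng had -0.04 and 0.07 for the members, and -0.03 and -0.01 for all bins.

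The chromosome 4 array, which holds most Oog genes, was high at the 8-cell stage. Its pooled OE with Dam-lamin B1 was 1.64 ± 1.29 in oocytes, 1.02 ± 0.345 in zygotes, 0.774 ± 0.482 in 2-cell embryos, 3.1 ± 1.05 in 8-cell embryos and 1.68 ± 0.352 in ES cells. The cells of 8-cell embryos ran from 1.23 to 6.35 and those of 2-cell embryos from 0 to 2.32. Within the array the signal was uneven. The 7 bins from Pramel1 to Pramel14 pooled to 3.77 ± 1.26 at the 8-cell stage, and the 5 bins from Pramel4 to Pramel13 to 2.02 ± 0.972. The 4 cells with Dam had the reverse order, 1.16 ± 0.562 over the first 7 bins and 2.47 ± 0.86 over the last 5. In zygotes these stretches pooled to 0.911 ± 0.414 and 1.2 ± 0.611 with Dam-lamin B1.

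Oog4 shares its bin with Pramel12, and the mean OE of that bin with Dam-lamin B1 was 1.95 ± 1.41 (0, 1.65 and 7.14) in oocytes, with lowest, median and highest cell in parentheses. It was 0.518 ± 0.539 (0, 0.427 and 2.1) in zygotes and 0.48 ± 0.538 (0, 0.434 and 1.95) in 2-cell embryos. It was 4.94 ± 2.14 (0.585, 4.83 and 9.1) in 8-cell embryos and 1.56 ± 0.456 (0.936, 1.55 and 2.26) in ES cells. The zygotes and 2-cell embryos were low, and 8-cell embryos stood highest. The bin was in contact in 46 of 56 (82.1%, interval 69.6% to 91.1%) oocytes, 2 of 19 (10.5%, interval 1.3% to 33.1%) zygotes and 8 of 47 (17%, interval 7.65% to 30.8%) 2-cell blastomeres. Among 8-cell blastomeres it was in contact in 40 of 41 (97.6%, interval 87.1% to 99.9%), and 9 of 10 (90%, interval 55.5% to 99.7%) ES cells were in contact. With Dam the bin was accessible in 34 of 43 oocytes, 28 of 46 zygotes and 35 of 45 2-cell blastomeres. In the 4 cells of 8-cell embryos with Dam its OE was 1.36, 2.76, 1.24 and 1.98, above 1 in each.

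Pramel21, Pramel22 and Pramel23 share a bin of the same stretch. Its mean OE with Dam-lamin B1 was 1.37 ± 1.77 (0, 0.829 and 8.35) in oocytes and 1.12 ± 1.19 (0, 0.734 and 5.08) in zygotes. It was 0.297 ± 0.602 (0, 0 and 3.26) in 2-cell embryos, 3.34 ± 1.42 (0.756, 3.18 and 6.66) in 8-cell embryos and 1.33 ± 1.38 (0, 1.11 and 4.89) in ES cells. At the 2-cell stage 31 of 47 cells had no read in it and 4 of 47 were in contact, while at the 8-cell stage 40 of 41 were. With Dam its mean was below 1 at every stage, 0.843 ± 0.365 in oocytes, 0.902 ± 0.647 in zygotes and 0.913 ± 0.787 in 2-cell embryos. The 4 cells of 8-cell embryos had 0, 0, 0.748 and 0.598. The bin was accessible in 0 of these 4 cells, which allows a share of up to 60.2%.

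Pramel16 and Pramel14, at the end of that stretch, had a mean OE with Dam-lamin B1 of 1.81 ± 2.02 (0, 1.49 and 11.3) in oocytes, 1.02 ± 0.839 (0, 0.776 and 3.1) in zygotes and 1 ± 0.901 (0, 0.749 and 4.55) in 2-cell embryos. It was 4.47 ± 2.96 (0.698, 3.68 and 15.6) in 8-cell embryos and 1.77 ± 0.866 (0, 1.69 and 3.16) in ES cells. They were in contact in 39 of 41 8-cell blastomeres and in 5 of 19 zygotes. The 5 well covered bins from Pramel12 to Pramel14, chosen after their values were seen, were all in contact in 37 of 41 8-cell blastomeres. This was so in 13 of 56 oocytes, 0 of 19 zygotes, 1 of 47 2-cell blastomeres and 4 of 10 ES cells. None of the 5 was in contact in 19 of 47 2-cell blastomeres and in 0 of 41 at the 8-cell stage. With Dam all 5 were accessible in 6 of 43 oocytes, 3 of 46 zygotes, 6 of 45 2-cell blastomeres and 0 of 4 at the 8-cell stage.

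**Figure D2:**
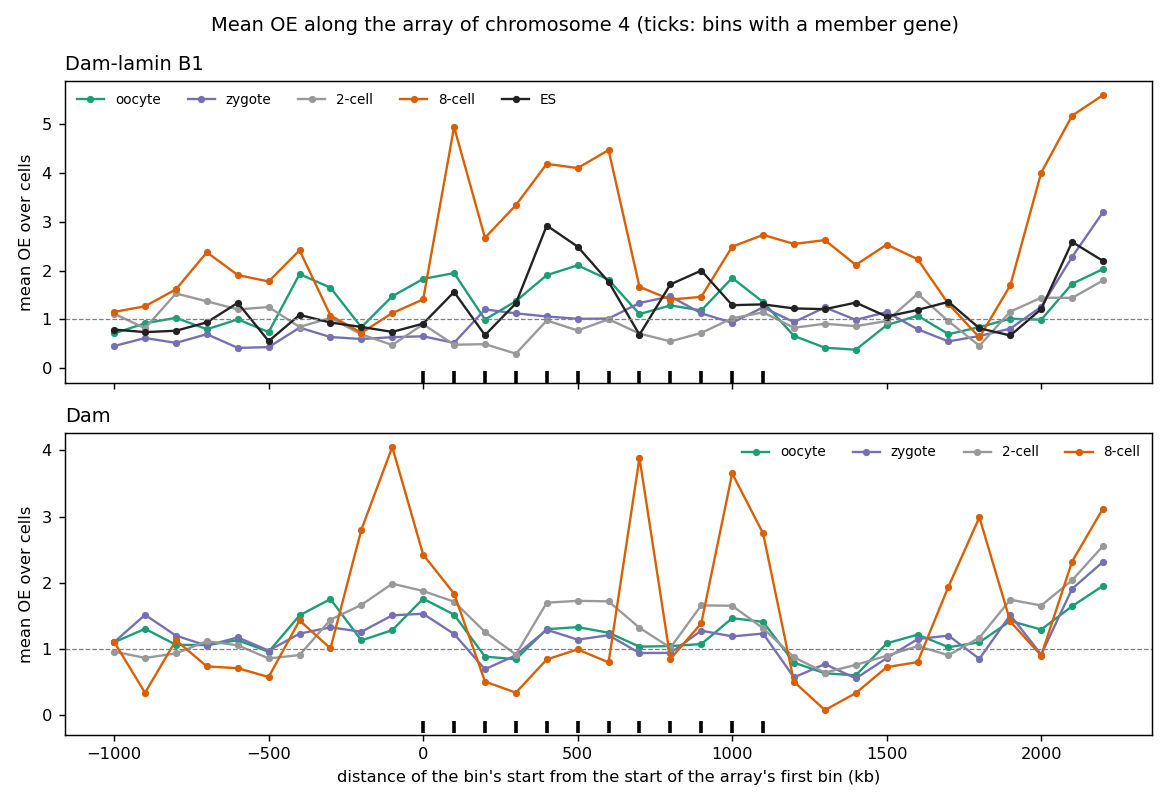
Mean OE in 100 kb bins along the chromosome 4 array and its surroundings, against the distance from the start of the array in kb, in one panel with Dam-lamin B1 and one with Dam. Lines are stages, and ticks mark bins with a member gene. At the 8-cell stage Dam-lamin B1 reaches 4.94 at the bin of Pramel12 and Oog4, the highest of the array, and 5.6 outside it, at 2200 kb. The 4 cells with Dam have 3.89 at Pramel4 and 0.336 at Pramel21, Pramel22 and Pramel23.

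On the other side of the array Pramel4 had a mean OE with Dam-lamin B1 of 1.11 ± 1.59 (0, 0.716 and 8.86) in oocytes, 1.34 ± 1.08 (0, 1.27 and 4.21) in zygotes and 0.708 ± 0.867 (0, 0.485 and 3.78) in 2-cell embryos. It was 1.67 ± 1.29 (0, 1.8 and 4.83) in 8-cell embryos and 0.685 ± 0.505 (0, 0.597 and 1.74) in ES cells, so the stages overlapped widely. With Dam its 4 values at the 8-cell stage were 2.9, 3.92, 3.97 and 4.76, against 1.32 ± 0.881 (0, 1.39 and 3.82) at the 2-cell stage. The bin was accessible in 4 of 4 8-cell blastomeres and 26 of 45 at the 2-cell stage. Pramel13, at the end of the array, was accessible in 4 of 4 as well, with OE of 2.77, 2.14, 4.33 and 1.73. With Dam-lamin B1 its mean was 1.36 ± 1.27 (0, 0.971 and 5.91) in oocytes, 1.25 ± 1.79 (0, 0.838 and 7.74) in zygotes, 1.14 ± 0.973 (0, 1.04 and 3.95) in 2-cell embryos, 2.73 ± 2.11 (0, 2.16 and 9.09) in 8-cell embryos and 1.31 ± 0.73 (0.611, 1.2 and 3.1) in ES cells. It was in contact in 26 of 47 2-cell blastomeres and 35 of 41 at the 8-cell stage.

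Oog3 and Oog2, which share a bin, did not have the 8-cell maximum of the bin of Oog4. Their mean OE with Dam-lamin B1 was 1.29 ± 1.43 (0, 0.784 and 5.97) in oocytes, 1.47 ± 0.864 (0, 1.38 and 3.17) in zygotes and 0.549 ± 0.714 (0, 0 and 2.36) in 2-cell embryos. It was 1.41 ± 1.72 (0, 0.945 and 9.65) in 8-cell embryos and 1.72 ± 0.86 (0.849, 1.61 and 3.78) in ES cells. They were in contact in 25 of 56, 13 of 19, 10 of 47, 19 of 41 and 8 of 10 of these cells. The 2-cell stage was lowest, and the means of the other 4 stages lay within 1 SD of each other. Oog1 on chromosome 12 lies in a thinly covered bin (12.3% of the median bin). It had 43 reads over all oocytes with Dam-lamin B1, 3 over zygotes, 12 over 2-cell embryos, 28 over 8-cell embryos and 6 over ES cells. Its mean OE was 2.16 ± 3.12, 0.435 ± 1.52, 0.858 ± 2.17, 2.22 ± 2.75 and 1.3 ± 1.91 in the same order, with an SD above the mean at every stage. With Dam it was 1.15 ± 1.18, 0.965 ± 1.24, 1.04 ± 1.6 and 0.924 ± 1.85 from the oocyte to the 8-cell stage.

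Outside the large arrays the 8-cell maximum was seen in some bins. Pramel51, in the cluster of Oog1, had the highest mean of the 35 bins at the 8-cell stage, 5.06 ± 2.53 (0, 4.97 and 11.7), after 0.831 ± 0.954 (0, 0.501 and 2.87) in 2-cell embryos and before 2.43 ± 1.41 (0.663, 2.25 and 5.58) in ES cells. The bin of Pramel18 and Pramel19 had 1.22 ± 1.01 (0, 1.19 and 4.7) in oocytes, 1.44 ± 1.29 (0, 1.15 and 4.82) in zygotes and 0.713 ± 0.838 (0, 0.53 and 3.74) in 2-cell embryos with Dam-lamin B1. It had 2.78 ± 1.46 (0, 2.3 and 6.4) in 8-cell embryos, where 37 of 41 cells were in contact, and 1.11 ± 0.888 (0, 1.11 and 3.01) in ES cells. Both bins were thus higher in 8-cell embryos than at the neighbouring stages, with ranges that overlap.

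Pramel7 and Pramel32 followed other courses. The mean OE of Pramel7 with Dam-lamin B1 was 1.58 ± 1.5 (0, 1.25 and 6.66) in oocytes, 2.21 ± 1.19 (0.56, 2.01 and 6.19) in zygotes, 0.67 ± 0.649 (0, 0.529 and 2.28) in 2-cell embryos, 1.92 ± 2.17 (0, 1.4 and 10.6) in 8-cell embryos and 1.45 ± 0.829 (0.366, 1.37 and 2.55) in ES cells. It was in contact in 18 of 19 zygotes and 16 of 47 2-cell blastomeres. Its zygote and 8-cell means did not differ beyond their spread. Pramel32, beside interferon genes, was at 0.915 ± 0.884 in oocytes, 0.764 ± 0.819 in zygotes, 0.923 ± 1.04 in 2-cell embryos, 1.01 ± 0.97 in 8-cell embryos and 1.9 ± 1.32 in ES cells, and its first 4 stages did not differ beyond their spread.

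**Figure D3:**
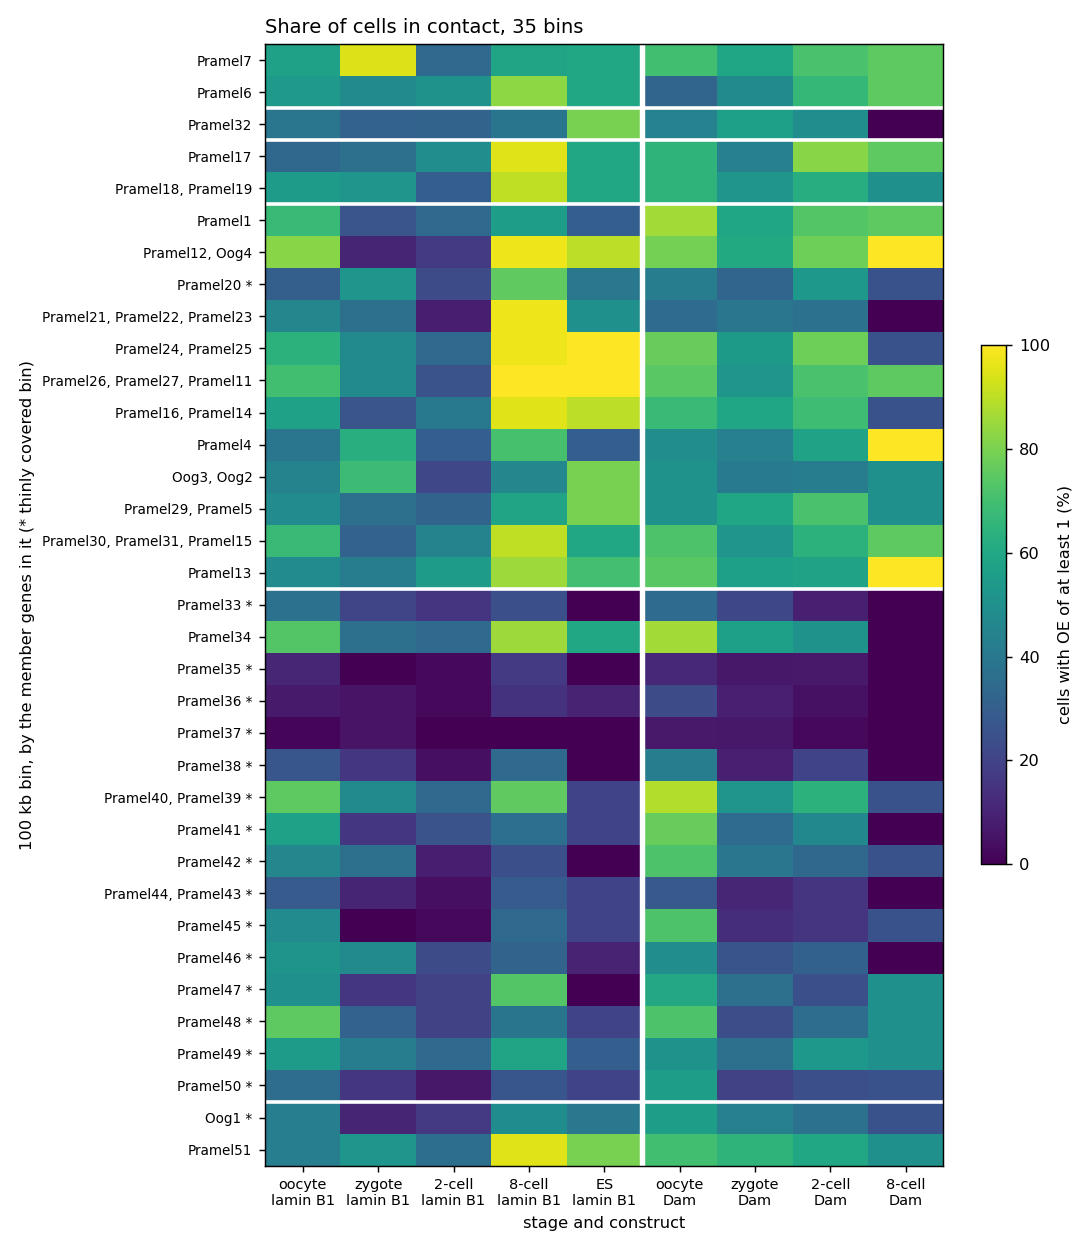
Share of cells with OE of at least 1, in percent by the colour bar, in each of the 35 bins (rows by cluster; asterisks mark thinly covered bins) by stage and construct (columns). At the 8-cell stage with Dam-lamin B1 the well covered bins from Pramel12 and Oog4 to Pramel16 and Pramel14 are in contact in 95.1% to 100% of cells, and at the 2-cell stage in 8.51% to 40.4%.

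The chromosome 5 array, which holds Pramel genes alone, had its highest mean in oocytes. Pooled OE with Dam-lamin B1 was 2.72 ± 2.13 in oocytes (0.407, 1.9 and 8.88), 0.931 ± 0.531 in zygotes (0, 0.831 and 1.94) and 0.741 ± 0.523 in 2-cell embryos (0, 0.623 and 2.22). It was 2.33 ± 1.04 in 8-cell embryos (0.749, 2.13 and 4.79) and 0.645 ± 0.551 in ES cells (0.239, 0.504 and 2.13). The oocyte and 8-cell means lay within 1 SD of each other. With Dam it was 1.42 ± 0.325, 0.919 ± 0.391, 1.2 ± 0.655 and 0.66 ± 0.279 from the oocyte to the 8-cell stage. In ES cells 9 of 10 cells were below 1 on chromosome 5, and the lowest ES cell on chromosome 4 was at 1.15. Pramel34, the well covered member, had 2.61 ± 2.73 (0, 1.59 and 12.7) in oocytes, 0.773 ± 0.668 (0, 0.816 and 1.91) in zygotes, 0.825 ± 0.942 (0, 0.511 and 3.59) in 2-cell embryos, 2.34 ± 1.31 (0, 2.13 and 6.05) in 8-cell embryos and 1.19 ± 0.837 (0, 1.03 and 2.72) in ES cells.

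Single bins of this array rest on few reads. Pramel40 and Pramel39 share a bin with 182 reads over the oocytes with Dam-lamin B1, where its mean OE was 3.68 ± 3.44 (0, 2.87 and 14.3). It was 1.08 ± 1.32 (0, 0 and 3.66) in zygotes, 1.15 ± 1.77 (0, 0 and 6.68) in 2-cell embryos, 4 ± 3.2 (0, 4.15 and 12.2) in 8-cell embryos and 0.293 ± 0.516 (0, 0 and 1.34) in ES cells. Pramel45 had 49 reads over all oocytes, 0 over zygotes, 1 over 2-cell embryos, 16 over 8-cell embryos and 2 over ES cells with Dam-lamin B1. Of the oocytes 27 of 56 were in contact, and of the zygotes 0 of 19, which allows up to 17.6%. With Dam it had 71 reads over oocytes, 7 over zygotes and 8 over 2-cell embryos, and its mean OE was highest in oocytes with both constructs.

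Pramel47 had 75, 6, 12, 63 and 0 reads in the 5 stages with Dam-lamin B1. It was in contact in 30 of 41 8-cell blastomeres and in 0 of 10 ES cells, which allows up to 30.8%. Pramel37 had 1 read over all oocytes, 1 over zygotes and 0, 0 and 0 at the later stages, so no course can be read from its bin.

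**Figure D4:**
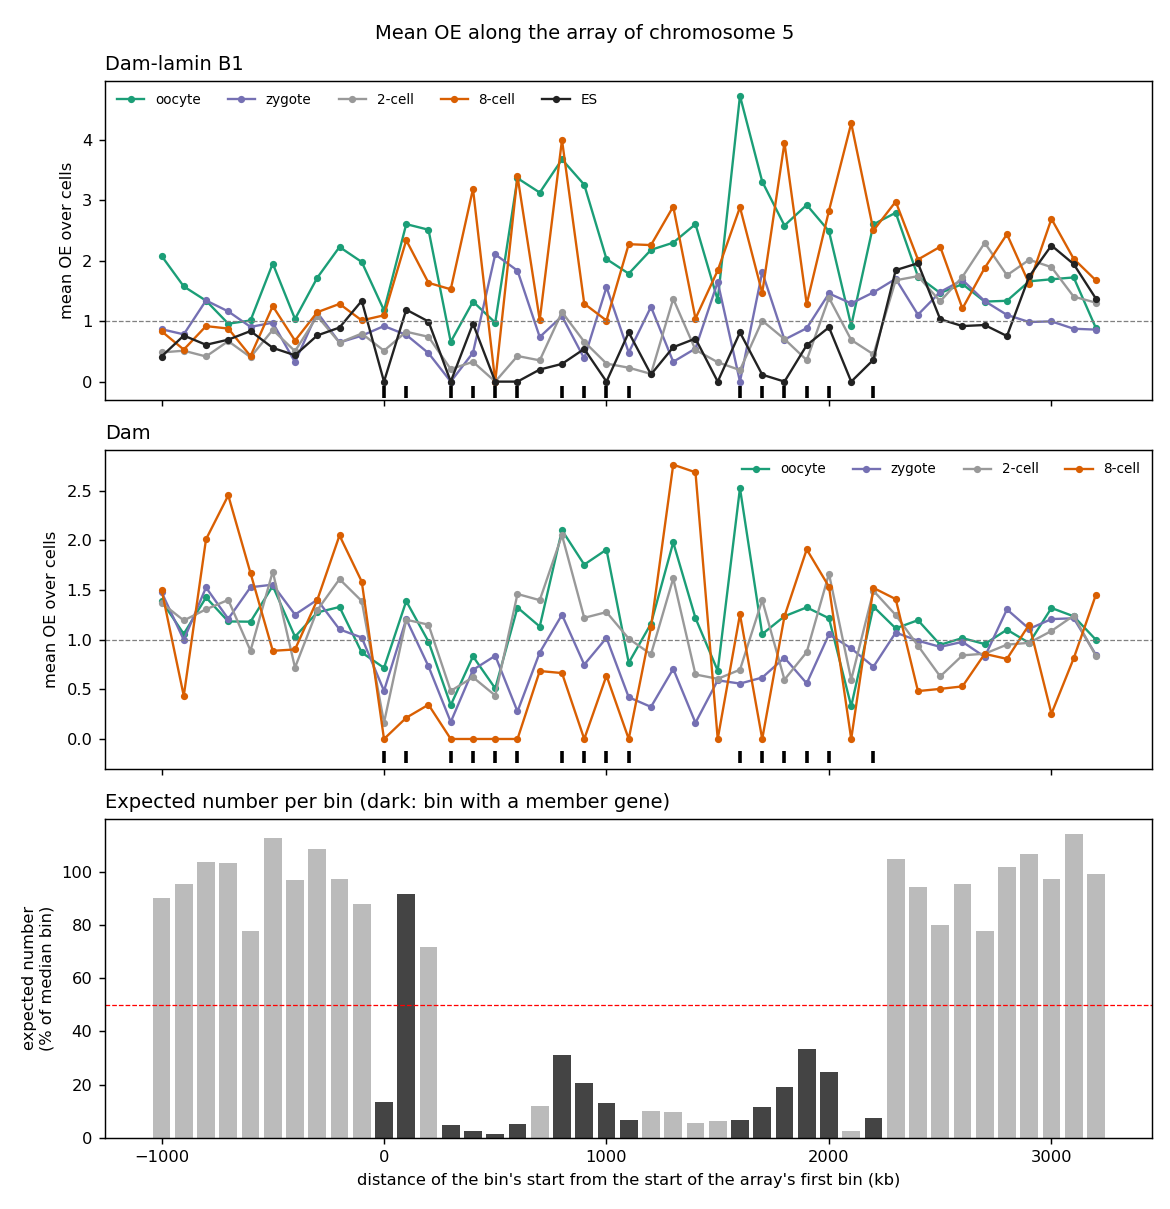
Mean OE along the chromosome 5 array, in a panel for each construct, and below them the expected number of each bin as a percentage of the median bin, against the distance from the start of the array in kb. In member bins other than that of Pramel34 the expected number is 1.54% to 33.3%, and the mean OE scatters there.

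Oocytes with Dam-lamin B1 spread more from cell to cell than the other oocytes. The SD of their pooled OE over the 35 bins was 0.84, against 0.208 in oocytes with Dam, at median depths of 47948 and 181967 reads. The part of depth in this spread was not tested. Oocytes with Dam-lamin B1 that are labelled 20 ng had 1.32 ± 0.365 (n = 17) and those labelled 50 ng 1.32 ± 0.208 (n = 23). On the chromosome 5 array they had 1.47 ± 0.588 and 1.66 ± 0.629, against 2.72 ± 2.13 in the 56 oocytes. The arrays of chromosomes 4 and 5 had a Pearson's r of 0.06 over the 56 oocytes and 0.15 over the 41 cells of 8-cell embryos, a description over cells that differ in depth.

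Other sets of bins, each taken as a whole, did not share the course at this size, but single bins outside the members also rose. Bins without a member at 2100 and 2200 kb from the start of the chromosome 4 array are examples. Their mean OE with Dam-lamin B1 was 1.44 and 1.8 at the 2-cell stage, and 5.18 and 5.6 at the 8-cell stage. The 128 bins within 1 Mb of the members that hold none had a pooled OE with Dam-lamin B1 of 0.963 ± 0.174 in oocytes, 1.04 ± 0.113 in zygotes, 1.07 ± 0.202 in 2-cell embryos, 1.57 ± 0.272 in 8-cell embryos and 1.19 ± 0.181 in ES cells. The 338 bins of olfactory receptor genes, another large family of tandem copies, had 0.756 ± 0.178, 1.36 ± 0.165, 0.856 ± 0.119, 1.25 ± 0.158 and 1.21 ± 0.177 in the same order. The 30 bins of other tandem families with oocyte or early embryo transcripts had 1.25 ± 0.538, 1.04 ± 0.269, 1.03 ± 0.226, 1.68 ± 0.302 and 1.18 ± 0.275. The 32 bins of other oocyte genes had 1.2 ± 0.236, 0.869 ± 0.162, 1.14 ± 0.197, 1.05 ± 0.208 and 0.792 ± 0.118. Among these 5 sets the members had the highest mean at the 8-cell stage and the lowest at the 2-cell stage. This has no test, since each stage is 1 sample and the members were chosen on it.

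Between zygotes with either construct each embryo is a replicate, and the difference was tested by limma over 23945 bins with Benjamini-Hochberg adjustment. The choice of members used the zygotes with Dam-lamin B1, so nothing is read from the members' count. Of the 35 bins 3 were higher with Dam-lamin B1 and 7 lower at an adjusted p under 0.05, with a background of 22.1% of all bins higher and 37.8% lower. The median log2 difference was -0.22 for the members and -0.36 for all bins, and with each cell centred on its median 3 members were higher and 3 lower, with a background of 24.9% higher and 31.1% lower. The zygotes with Dam-lamin B1 had a median depth of 41812 reads and those with Dam 94300. With equal reads per cell 4 of 30 members were higher and 2 lower, with a background of 19.6% higher and 17.9% lower.

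For single members these zygotes give a description only, since their values with Dam-lamin B1 belong to the course that chose the members. The bin of Pramel12 and Oog4 had a mean OE of 0.518 ± 0.539 with Dam-lamin B1 (n = 19) against 1.22 ± 0.767 with Dam (n = 46), a log2 difference of -1.06 ± 0.28 (SE), with 18 of 19 zygotes below the mean with Dam. Pramel1, the first gene of the array, had 0.653 ± 0.738 with Dam-lamin B1 (n = 19) against 1.53 ± 0.988 with Dam (n = 46), a log2 difference of -1.16 ± 0.27 (SE), with 17 of 19 below that mean. The values of both bins overlap between the constructs.

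Oog3 with Oog2 and Pramel7 lay on the opposite side. Oog3 and Oog2 had 1.47 ± 0.864 with Dam-lamin B1 (n = 19) against 0.938 ± 0.775 with Dam (n = 46), a log2 difference of 0.69 ± 0.28 (SE), with 13 of 19 zygotes above the mean with Dam. Pramel7 had 2.21 ± 1.19 with Dam-lamin B1 (n = 19) against 1.43 ± 0.861 with Dam (n = 46), a log2 difference of 0.62 ± 0.25 (SE), with 14 of 19 above it. Pramel46, on few reads, had a log2 difference of 0.99 ± 0.32 (SE), with 9 of 19 above it. The other called bins had negative log2 differences, -0.74 at Pramel32, -0.64 at Pramel34, -0.71 at Pramel41, -0.76 at Pramel47 and -1.03 at Oog1. With equal reads they were -0.40, -0.48, -0.22, 0.22 and -0.59 in the same order and not called, so that Pramel47 changed direction.

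**Figure D5:**
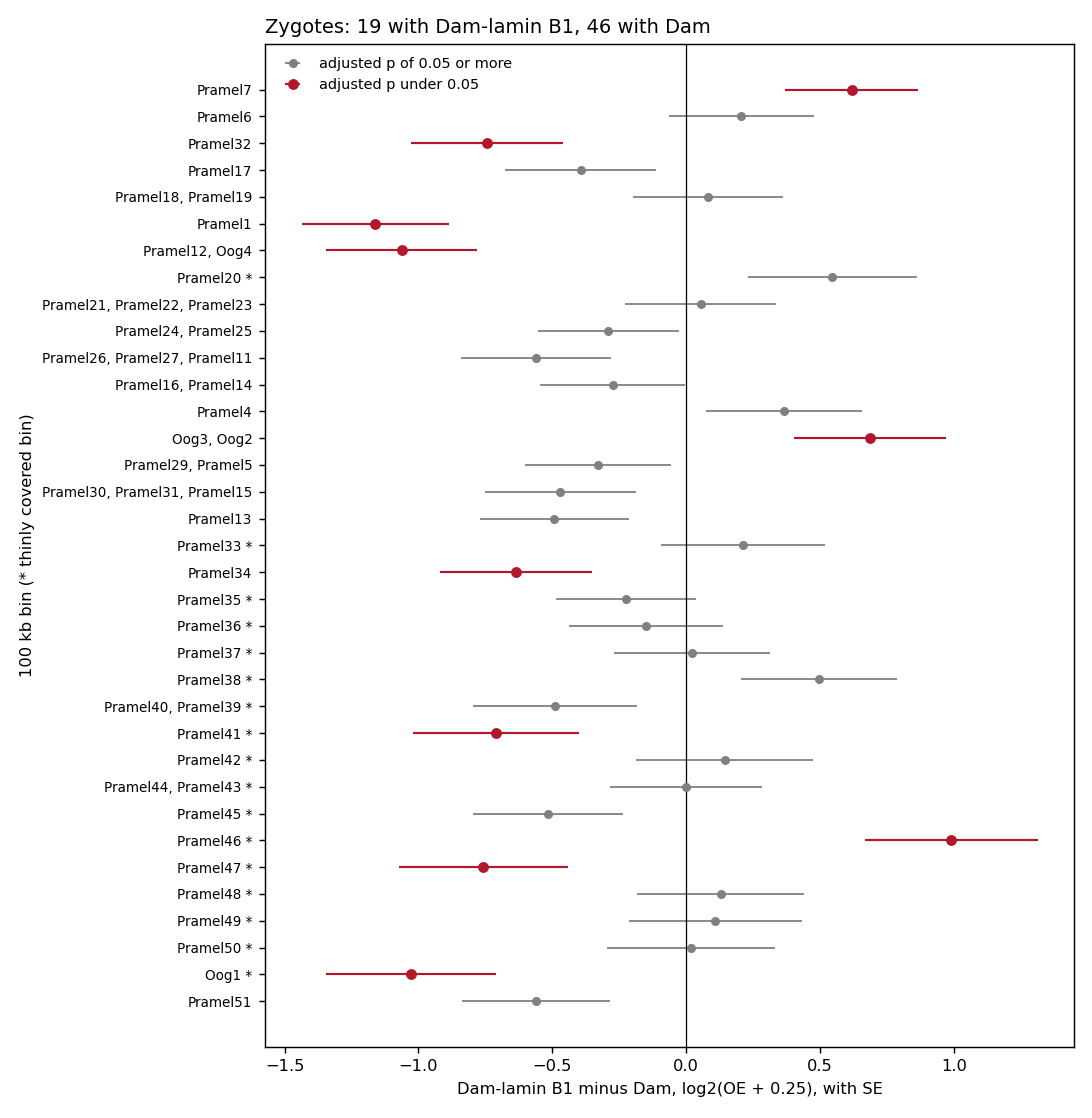
Difference between zygotes with Dam-lamin B1 (n = 19) and with Dam (n = 46) in each of the 35 bins, as log2(OE + 0.25) with its SE from limma; red points have an adjusted p under 0.05. Pramel1 lies at -1.16 and the bin of Pramel12 and Oog4 at -1.06. The colours are a description only, since the zygotes with Dam-lamin B1 belong to the course that chose the members.

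Among the other oocyte genes 24 of 32 bins were lower with Dam-lamin B1 in the same fit and 1 was higher. With equal reads 15 were lower and 1 higher. Of the 30 bins of other tandem families 5 were lower and 2 higher. Mother, litter and day of the zygotes are not named, and p-values measure only the spread between these embryos.

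Isolated pronuclei with Dam-lamin B1, whose mRNA dose the labels do not give, tell the parental genomes apart. Most members had a lower value in the paternal pronucleus, which comes from the sperm, than in the maternal one, which comes from the oocyte, but few single bins passed the test. Pooled OE over the 35 bins was 0.951 ± 0.275 (n = 15) in paternal pronuclei, with 0.412, 0.966 and 1.62 as lowest, median and highest. It was 1.53 ± 0.471 (n = 10) in maternal pronuclei (0.76, 1.54 and 2.24), and the ranges overlapped. On the chromosome 4 array it was 0.806 ± 0.432 in paternal and 1.46 ± 0.92 in maternal pronuclei, and on the chromosome 5 array 0.755 ± 0.402 and 1.8 ± 1.29. Pramel7 and Pramel6 on chromosome 2 pooled to 2.28 ± 1.04 and 1.76 ± 0.969, the other way round. Of 33 members tested 25 (75.8%) had a lower estimate in paternal pronuclei, against 37.9% of all bins. The median log2 difference was -0.59 for the members and 0.19 for all bins. Of the well covered members 14 of 18 had a lower estimate.

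Only 2 members passed limma's test at an adjusted p under 0.05, both lower in paternal pronuclei, with a background of 0.276% lower and 1.83% higher. Pramel47 had 9 reads over 15 paternal and 17 over 10 maternal pronuclei, where 18.4 and 7.65 were expected (limma adjusted p = 0.00834, from 0.00842 to 0.729 over 8 alternatives). Pramel33 had 0 reads over the paternal pronuclei, where 12.9 were expected. It had 8 over the maternal ones, where 5.37 were expected. These 8 reads lay in 5 of 10 maternal pronuclei (limma adjusted p = 0.0137, from 0.00325 to 0.218 over 8 alternatives). Neither bin is well covered, and neither passed with equal reads, where 0 members and 0 of all bins passed limma's test, with 5 members and 2730 bins at an unadjusted p under 0.05.

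Pronuclei that also carried Kdm5b mRNA, at 2 µg/µl with 5 ng/µl of Dam-lamin B1 mRNA, gave the same comparison in other samples. Kdm5b encodes a demethylase of histone H3 lysine 4, and the sources used here do not say what the mutation changes. With wild-type Kdm5b 24 of 34 members (70.6%) had a lower estimate in 19 paternal than in 19 maternal pronuclei, against 32.1% of all bins. With mutant Kdm5b it was 23 of 32 (71.9%) for 6 paternal and 13 maternal pronuclei, against 27.8%. The median log2 difference was -0.34 for the members and 0.26 for all bins with wild type, and -0.38 and 0.41 with the mutant. Other tandem families had a lower estimate in paternal pronuclei in 22, 23 and 20 of 30 bins without Kdm5b, with wild type and with the mutant, the same direction as the members.

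With wild-type Kdm5b 2 members passed limma's test, both lower in paternal pronuclei, with a background of 1.21% lower and 14.4% higher. No alternative, such as equal reads, was run for this comparison. Median depth was 104974 reads in paternal and 74915 in maternal pronuclei. Pramel4 had 0.647 ± 0.478 in paternal and 1.65 ± 1.41 in maternal pronuclei (limma adjusted p = 0.0442). Pramel49 had 0.619 ± 0.963 and 1.78 ± 1.75 (limma adjusted p = 0.023). Its bin is thinly covered, with 17 reads over paternal and 33 over maternal pronuclei. The called members did not all keep their direction. Without Kdm5b, with wild type and with the mutant the log2 difference was -1.77, 0.22 and 0.84 at Pramel33. In the same order it was -1.93, 0.07 and -1.35 at Pramel47 and -0.72, -0.94 and -0.07 at Pramel4. At Pramel49 it was 0.38, -1.15 and -1.23. With the mutant 0 members passed limma's test, against a background of 0.863% in either direction. At an unadjusted p under 0.05 there were 4 of 32 members, against 3370 of all 23873 bins.

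No member passed limma's test at an adjusted p under 0.05 in the treated zygotes. Whole zygotes with wild-type against mutant Kdm5b had 0 of 34 members called, with a background of 0% of all bins. At an unadjusted p under 0.05 there were 5 of 34 members, against 4100 of all 23913 bins. Pooled OE over the well covered members was 1.25 ± 0.229 (n = 14) with wild type and 1.23 ± 0.401 (n = 9) with the mutant. Paternal pronuclei had 0 of 33 called (background 0.0167%), at 1.02 ± 0.116 (n = 19) and 1.09 ± 0.132 (n = 6). Unadjusted it was 4 of 33 members, against 3335 of all 23922 bins. Maternal pronuclei had 0 of 33 called (background 0%), at 1.44 ± 0.47 (n = 19) and 1.44 ± 0.497 (n = 13). There 4 of 33 members were under 0.05 unadjusted, against 2243 of all 23896 bins. Whether the Kdm5b difference depends on the parent was tested as an interaction in limma, in which 0 of 34 members passed (background 0.00418%). Unadjusted it was 2 of 34 members, against 1451 of all 23947 bins.

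Zygotes with wild-type against mutant Kdm4d, a demethylase of histone H3 lysine 9, had 0 of 31 members called by limma (background 0.00419%), at 1.2 ± 0.302 (n = 12) and 1.31 ± 0.322 (n = 10). At an unadjusted p under 0.05 there was 1 of 31 members, against 937 of all 23884 bins. Zygotes labelled aphidicolin, an inhibitor of DNA replication, against DMSO had 0 of 31 called by limma (background 0.00838%), at 1.35 ± 0.324 (n = 9) and 1.33 ± 0.259 (n = 11). Here 5 of 31 members were under 0.05 unadjusted, against 1322 of all 23866 bins. The labels give no mRNA dose for these zygotes. In each comparison the difference between the group means was smaller than the SD within the groups.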

How the data were processed

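Single-cell DamID libraries were deposited as a table of ratios of observed to expected reads per 100 kb bin and cell, made by the authors; BWA 0.7.12, cutadapt and mm10 are named in the submitters' processing notes. The sources used here do not say how the expected number was made, how reads matching several places were treated or how the 2 deposited lists of lamina-associated domains were called. Depth was recovered from the steps between low values, since 99.8% to 100% of values up to 20 reads were whole within 0.02 reads. It ran from 23564 to 1091143 reads per cell, with a median of 71773.5.

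The 498 cells with a group were grouped by their labels. Stages were described without a test. Zygotes and pronuclei were compared in 7 tests with limma 3.58.1 in R 4.3.3 on log2(OE + 0.25) over all bins with a value above 0 in at least 3 cells, with Benjamini-Hochberg adjustment at 0.05. limma was tested on simulated data: for zygotes with Dam-lamin B1 against Dam it recovered 93 of 100 bins changed 4-fold and 17 of 100 changed 2-fold, and called 71 of 23785 unchanged bins, 70 of them lower, against 4 with equal reads. In the other 6 comparisons it recovered 45 to 79 of 100 bins changed 4-fold and 0 to 7 of 100 changed 2-fold. By rule the text names the bin with most members in each cluster, each bin with an Oog gene, the 2 bins with the largest rise and the 2 with the largest fall in the share of cells in contact at each step with Dam-lamin B1, and every member called in a test. Pramel34, Pramel51 and the 5 bins of chromosome 4 were singled out after their values were seen. The members and the lists were chosen with earlier results of these data known. Alternatives were the pseudocount, filters, centring, quantile normalization, equal reads (each cell thinned to the shallowest cell of a test, or to 40000 reads for the stages), any overlap with the gene body, a replicate block, another contact threshold and leaving out the largest cluster. Well covered bins, pooled OE, the interaction and the comparison of parents with Kdm5b were added after seeing the data. Pooled libraries were not analysed here.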

Additional observations from a re-analysis of the deposited data

Results flagged for a closer look

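Of 49 groups of 4 to 10 cells tried 9 had a cell far from the others. Chance gives about 1 in 20 for continuous values, which bins with few reads do not have. Among ES cells with Dam-lamin B1, replicate 9 (56098 reads) had the highest pooled OE on the chromosome 5 array, 2.13 against 0.828 in the next cell. The same cell had the highest OE at Pramel21, Pramel22 and Pramel23 (4.89, next 1.95) and at Pramel45 (6.32, next 1.82). Other ES cells were highest at Pramel32 (5.10, next 2.68), at Oog3 and Oog2 (3.78, next 2.19) and at Pramel13 (3.1, next 1.63). Among the 4 cells of 8-cell embryos with Dam, 1 cell each had a single read in a thinly covered bin where the others had 0, a gap that any 1 read would give, with an OE of 2.66 at Pramel40 and Pramel39, 5.02 at Pramel45 and 3.69 at Oog1. The causes were not tested.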

How the results depend on the processing

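Of 70 counts of called members under an alternative 61 stayed within 1.5 times the main count. Wild-type against mutant Kdm5b or Kdm4d and aphidicolin against DMSO had 0 throughout, which counts as staying. The 9 counts that moved belong to the other comparisons. Of 131 values of the stage course 100 stayed. Mean OE and shares in contact had to move by less than the SD between cells. Shares of bins changed 2-fold had to stay within 1.5 times. Of 102 values of single called bins 74 kept their direction and call, 27 lost the call and 1 reversed: Pramel47 in zygotes, at a log2 difference of 0.22 with equal reads. The causes were not tested. In zygotes with either construct the 10 called members, from which nothing is read, became 6 with each cell centred, 6 with equal reads and 6 among well covered bins. Of all bins 5972 were higher and 7452 lower of 23945 with centring, and 4679 and 4270 of 23868 with equal reads. Among well covered bins it was 5310 and 8991 of 23537. Between paternal and maternal pronuclei the 2 called members became 1 without a filter, 0 with centring, 5 with quantile normalization, 0 with equal reads and 0 among well covered bins. Of all bins 376 were higher and 38 lower of 24022 without a filter, and 1 and 0 of 23927 with centring. With quantile normalization it was 162 and 128 of 23927, and with equal reads 0 and 0 of 23801. Of 23537 well covered bins 451 were higher and 60 lower. With a replicate block 10 members were called in zygotes with either construct, 0 higher and 10 lower of 32. Of the members 31.2% were lower, against 7181 of all 23913 bins, or 30.03%, with 15.5% of all bins higher. The calls of Pramel7, Oog3 with Oog2 and Pramel46 were lost there. In pronuclei without Kdm5b 1 member was called with the block, against 127 of all 23916 bins higher and 15 lower. No pairing by number was seen. Same-numbered samples had a median correlation of deviations of -0.004 to 0.03 over the 7 comparisons, with a highest value of 0.14. Per comparison 1 to 2 samples correlated best with their own number. Bins hold few reads per cell, so low correlations cannot exclude a pairing.

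Counting contact from an OE of 2, the share of member bins in contact was 29.7% in oocytes, 16.4% in zygotes, 10.3% at the 2-cell stage, 46.0% at the 8-cell stage and 18.3% in ES cells with Dam-lamin B1, and 15.4%, 15.1%, 24.4% and 22.9% from the oocyte to the 8-cell stage with Dam. Over well covered bins, from an OE of 1, it was 43.9% in zygotes, 80.1% at the 8-cell stage and 68.9% in ES cells with Dam-lamin B1, and 53.1%, 63.5% and 55.6% in zygotes, 2-cell and 8-cell embryos with Dam. Without the chromosome 5 array, the largest cluster by number of bins, it was 77.9% at the 8-cell stage, 66.3% in ES cells, and 51.4%, 62.2% and 55.3% in the same groups with Dam. With equal reads it was 41.5% in oocytes with Dam. Mean OE in ES cells, 1.01 over all bins, was 1.52 without that array, 1.56 over well covered bins and 1.46 pooled. With Dam it was 1.22 in zygotes over well covered bins, and 1.61, 1.63 and 1.52 in 8-cell embryos under the same 3 settings. The share of members 2-fold lower from oocyte to zygote was 15.8% without that array and 16.7% over well covered bins, and from the 8-cell stage to ES cells 33.3% over well covered bins. Thin coverage of the chromosome 5 array and a depth of few reads per bin and cell limit statements on single bins.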

Other observations

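Labels contradict each other on the dose of 13 oocytes, which entered no comparison. Their pooled OE over the 35 bins ran from 0.828 to 1.52, with a median of 1.2. On the chromosome 4 array it ran from 0.610 to 1.43 and on the chromosome 5 array from 0.266 to 2.42. A cell of an 8-cell embryo that is labelled with both constructs had 2.09 over the 35 bins, 2.35 on the chromosome 4 array and 1.48 on the chromosome 5 array.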
